A study of Mus musculus with 3 samples.

Results

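The elastic and oxytalan fibre genes were followed as a set of 10, taken by symbol from the 3 count matrices: Eln, the fibrillin genes Fbn1 and Fbn2, the fibulin genes Fbln2, Fbln5, Efemp1 and Efemp2, and the microfibril-associated genes Mfap2, Mfap5 and Mfap4. All 10 had a row among the 28006 features of the Cxcl12-GFP P6 and P25 matrices and among the 32286 features of the Cxcl12-creER P6 matrix. Levels were read in cell classes that were rebuilt from marker genes within each library. There was 1 library per group, so no difference below has a replicate check, and every interval is a 95% interval for counting error only.

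The 3 libraries came from mouse mandibular molars whose pulp and periodontium were dissociated and sorted by fluorescence before droplet 3′ sequencing with unique molecular identifiers (UMIs). The P25 library came from mice carrying Col1a1-GFP, Cxcl12-creER and the R26R(tdTomato/+) reporter, and its gate took cells positive for GFP, for tdTomato or for both. The Cxcl12-GFP P6 library came from Cxcl12-GFP/+ mice and its gate took GFP-positive cells. The Cxcl12-creER P6 library came from Cxcl12-creER; R26R(tdTomato/+) mice and its gate took tdTomato-positive cells, and the labels used here give no tamoxifen timing for either creER library. Age, alleles and gate therefore change together between libraries and cannot be told apart, and how many mice were pooled is not given in the labels. The Cxcl12 alleles drive reporter or recombinase in Cxcl12-expressing stroma, and Col1a1-GFP marks cells making type I collagen, so each gate sets which cells could be seen.

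Elastic fibres are built when tropoelastin, the product of Eln, is deposited on a scaffold of fibrillin microfibrils and crosslinked by lysyl oxidases. Fibulins and microfibril-associated glycoproteins help to place elastin on that scaffold. Oxytalan fibres are bundles of microfibrils with little or no elastin, and they are the characteristic elastic-system fibre of the periodontal ligament, the tissue that hangs the tooth root in its socket.

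After filtering, 5401 cells remained at P25, 7065 in the Cxcl12-GFP P6 library and 1121 in that of Cxcl12-creER P6, with a median of 14862, 8144 and 1464 UMIs per cell. Clusters holding 26.7%, 22.8% and 52.3% of the cells, in the same order, took no class name. The 3 libraries shared between 0 and 3 kept cell barcodes in any pair. The first 8 bases of a cell barcode were also found at the start of a P25 barcode for 82.3% of the Cxcl12-creER P6 library and for 21.0% of the Cxcl12-GFP P6 library. One kit is labelled for all 3, and the part of this difference in any comparison was not tested. The Cxcl12-GFP P6 library also held sequences that its label does not give, with 1634 UMIs of the tdTomato feature tdT-WPRE_trans (23.7 CPM) and 980 UMIs of the recombinase feature iCreER_trans in 429 barcodes, beside 51690 UMIs of eGFP. Free RNA was low at P25, where the 287 macrophage-like cells held at most 6.61 UMIs scaled to a library sum of 1000000 (CPM) of any member except Efemp2 at 20.1 CPM. At P6 such values were higher in some classes. The 22 neutrophil-like cells of Cxcl12-creER P6 held 246 CPM of Fbn2 and 123 CPM of Mfap2. Its 130 dental epithelium-like cells held 2.34 CPM of Fbn2 and 17.9 CPM of Mfap2. An unnamed cluster of 21 cells led by Prss34 and Mcpt8 held 0 CPM of both. Whether the neutrophil-like values are free RNA was not tested. The 10 epithelium-like cells of Cxcl12-GFP P6 held 280 CPM of Mfap2.

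Promoter windows are shown for Fbn1, Fbln5 and Fbln2, which were highest at P25 in connective tissue fibroblast-like cells (Fbn1 and Fbln2) and in marrow stromal-like cells (Fbln5). RefSeq windows in GRCm38.p6 were read for 6 of the 10 members, each running from 250 bases before to 50 after an annotated start. These 6 genes had 10 windows, some of them overlapping. Windows of Fbn2 were not read, and Eln, Mfap4 and Mfap5 had none in the set used. Capitals mark GGGCGG, the core of a GC box, on either strand (CCGCCC as printed), and each sequence reads 5′ to 3′ along the gene's strand. The Fbn1 window lies at chr2:125506389-125506688 on the minus strand, the Fbln5 window with more GC at chr12:101819070-101819369 on the minus strand and the Fbln2 window at chr6:91212514-91212813 on the plus strand.
Fbn1: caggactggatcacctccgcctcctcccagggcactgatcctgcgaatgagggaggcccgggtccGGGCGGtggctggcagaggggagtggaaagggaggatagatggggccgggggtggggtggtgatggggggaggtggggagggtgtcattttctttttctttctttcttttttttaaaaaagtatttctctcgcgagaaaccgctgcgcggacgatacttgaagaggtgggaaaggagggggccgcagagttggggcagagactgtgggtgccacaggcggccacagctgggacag
Fbln5: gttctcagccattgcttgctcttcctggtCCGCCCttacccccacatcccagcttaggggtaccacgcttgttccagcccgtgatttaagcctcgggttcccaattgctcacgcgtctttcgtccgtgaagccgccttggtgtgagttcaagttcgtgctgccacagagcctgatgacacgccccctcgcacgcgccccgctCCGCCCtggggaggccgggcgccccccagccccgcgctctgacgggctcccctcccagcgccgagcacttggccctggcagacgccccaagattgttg
Fbln2: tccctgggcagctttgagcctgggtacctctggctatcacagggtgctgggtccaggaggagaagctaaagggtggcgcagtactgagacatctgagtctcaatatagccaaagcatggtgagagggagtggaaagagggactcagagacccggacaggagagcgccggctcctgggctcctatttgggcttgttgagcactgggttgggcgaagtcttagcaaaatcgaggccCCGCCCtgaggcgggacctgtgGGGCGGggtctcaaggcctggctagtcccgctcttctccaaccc

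GGGCGG was found in 8 of the 10 member windows and in at least 1 window of each of the 6 genes, against 35.7% of all 32851 promoter windows of the same 300 bases. The TATA motif TATAAA was found in none of the 10 member windows, against 13.6% of all windows, on both strands. CATTCC, the core bound by TEAD factors, was found in 1 of the 10, a second Mfap2 window, against 14.7% of all windows. The windows of Fbn1 and Fbln2 were each 60.3% G and C and the printed one of Fbln5 65.7%, against a median of 52.7% over all windows, so the letters of a GC box are not independent of base composition. A second Fbln5 window, not printed, was 48.7% G and C and held no GGGCGG. A match is a description of these letters and not of a bound site.

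The class with the highest level of most members at P25 was not the ligament but a small population of connective tissue fibroblast-like cells, 120 cells of cluster 15 led by Mfap5, Clec3b, Mgp and Pi16. Among the named classes it held the highest level of 7 of the 10 members (Eln, Fbn1, Fbln2, Efemp1, Mfap2, Mfap5 and Mfap4). Single clusters outside it were higher in Mfap2 and Mfap4, as given below. Mfap5, which encodes the microfibril-associated glycoprotein MAGP2, stood at 2297 CPM there (95% interval 2221 to 2374), and these 120 cells held 78.6% of all Mfap5 UMIs of the library. Efemp1 (chr11:28853204-28926743, plus strand), which encodes fibulin-3, stood at 149 CPM and had 50.3% of its UMIs in the same cells. The signal was spread over the population, since 118 of the 120 cells had an Mfap5 UMI and the highest cell held 4.48% of the Mfap5 UMIs. When every cell was thinned to 1000 UMIs, 80.0% of these cells kept an Mfap5 UMI, against 0 of 287 macrophage-like cells, which allows a share of up to 1.05% at 3 counts.

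At that common depth a connective tissue fibroblast-like cell showed 3.08 ± 1.40 of the 10 members on average (SD over 120 cells), against 0.678 ± 0.813 in 1346 ligament-like cells and 0.839 ± 0.857 in 632 pulp-like cells at P25. In macrophage-like cells the mean was 0.0244, a level that free RNA can give. In the Cxcl12-creER P6 library, 45 connective tissue fibroblast-like cells led by Ly6a, Mfap5 and Clec3b also held high levels of Fbn1 at 1617 CPM, Mfap5 at 837 CPM and Eln at 390 CPM. No cluster of Cxcl12-GFP P6 took that class name.

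**Figure D1:**
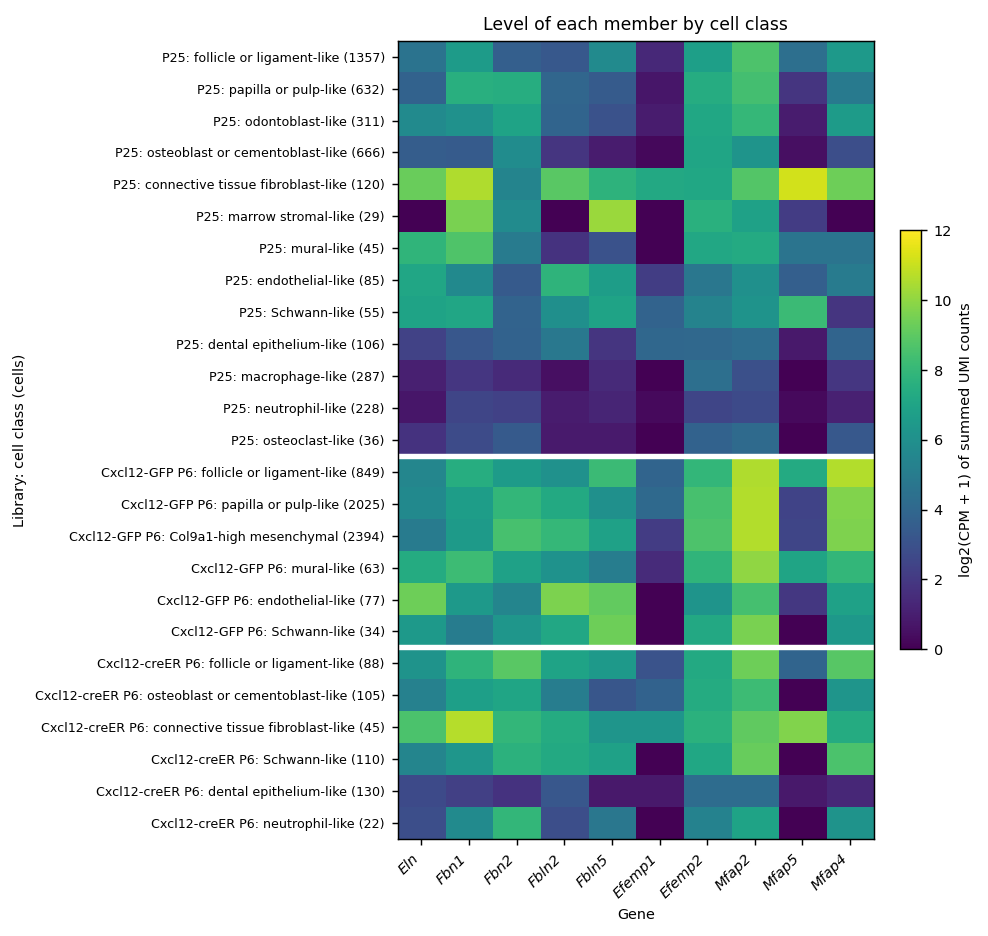
Level of each member (columns) in each cell class of at least 20 cells (rows, with the number of cells), by library, as log2(CPM + 1) of summed UMI counts. The connective tissue fibroblast-like row of P25 is bright for Eln, Fbn1, Fbln2, Mfap4 and Mfap5, the marrow stromal-like row is bright for Fbn1 and Fbln5 and at 0 for Eln, and the columns Mfap2 and Mfap4 are brighter in the Cxcl12-GFP P6 rows than in the row of the same class at P25.

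Eln (chr5:134702593-134747323, minus strand, GRCm38), the elastin gene, was highest at P25 in connective tissue fibroblast-like cells at 614 CPM (95% interval 575 to 655). Mural-like cells, the contractile cells around vessels, followed at 231 CPM and endothelial-like cells at 136 CPM. Schwann-like cells stood at 125 CPM, which did not differ from the endothelial-like value beyond counting error. The tooth's own named classes were all lower, with 52.9 CPM in odontoblast-like cells, 22.6 CPM in ligament-like cells and 12.6 CPM in pulp-like cells. The osteoblast or cementoblast-like class held 10.8 CPM, and its interval overlapped that of pulp-like cells. Single clusters were higher: an unnamed cluster of 242 cells led by Ibsp, Bmp3 and Dmp1 held 289 CPM, and ligament-like cluster 20 stood far above its class, as given below. Marrow stromal-like cells had 0 Eln UMIs in 29 cells, which allows up to 10.3 CPM at 3 counts. The mural value rests on few cells: 16 of 45 had an Eln UMI and the highest cell held 26.5% of them.

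Fbn1 (chr2:125300594-125507993, minus strand) encodes fibrillin-1, the main microfibril protein of adult tissue. At P25 it was highest in connective tissue fibroblast-like cells at 1538 CPM (95% interval 1476 to 1602), followed by marrow stromal-like cells at 764 CPM and mural-like cells at 420 CPM. Pulp-like cells at 187 CPM stood above ligament-like cells at 95.6 CPM, while the osteoblast or cementoblast-like class held 10.1 CPM, near the 8.57 CPM of epithelium-like cells. An unnamed cluster of 139 cells led by Mgp, Aspn and Col5a3 reached 1036 CPM.

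Fbn2 encodes fibrillin-2, which is known from developing microfibrils, and it had another order. Its highest P25 class level was 177 CPM in pulp-like cells (95% interval 167 to 188), then 124 CPM in odontoblast-like cells and 56.3 CPM in the osteoblast or cementoblast-like class. Ligament-like cells stood at 11.4 CPM. An unnamed cluster of 200 cells led by Ambn, Pcp4 and Crabp1 was highest of all P25 clusters at 440 CPM and held 25.7% of the library's Fbn2 UMIs.

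Among the fibulins, Fbln5 (chr12:101746565-101819055, minus strand), which encodes a protein that binds tropoelastin and lysyl oxidases, was highest at P25 in marrow stromal-like cells at 1187 CPM (95% interval 1065 to 1319), a class led by Adipoq, Hp and Cxcl12. After thinning, 55.2% of these 29 cells kept an Fbln5 UMI, against 0 of 287 macrophage-like cells. Eln, Fbln2, Efemp1 and Mfap4 had 0 UMIs in the same cells, so that Fbn1 and Fbln5 were high where elastin was not detected. In Cxcl12-GFP P6 the class with the most Fbln5 was Schwann-like, at 661 CPM in 34 cells, ahead of endothelial-like cells at 555 CPM, and these intervals overlapped.

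Fbln2 (chr6:91212455-91272540, plus strand) was high in both fibroblasts and vessels. At P25 it stood at 482 CPM in connective tissue fibroblast-like cells and 225 CPM in endothelial-like cells, and at 8.80 CPM in ligament-like cells. In Cxcl12-GFP P6 the endothelial-like cells held 806 CPM, the highest class level of that library, against 157 CPM in papilla or pulp-like cells. Efemp2 (chr19:5473954-5482517, plus strand), which encodes fibulin-4, a protein needed for elastin crosslinking, was the most even member. Its P25 class levels ran between 110 and 193 CPM across the ligament-like, pulp-like, odontoblast-like, osteoblast or cementoblast-like, connective tissue fibroblast-like, marrow stromal-like and mural-like classes, against 20.1 CPM in macrophage-like cells.

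The microfibril-associated genes parted from each other. Mfap2 (chr4:141010418-141015984, plus strand), which encodes MAGP1, was present across the mesenchyme, with 444 CPM in connective tissue fibroblast-like cells, 395 CPM in ligament-like cells and 343 CPM in pulp-like cells at P25. At 746 CPM, Mfap2 was highest in an unnamed P25 cluster of 405 cells led by Sfrp2, Pcp4 and Pmch. Its relative Mfap5 (chr6:122505845-122529290, plus strand) was at 19.8 CPM in the ligament-like and 2.58 CPM in the pulp-like class. Mfap4 (chr11:61485431-61488900, plus strand), which encodes a fibrinogen-domain protein that binds elastin and fibrillin, was high in few places. Its highest P25 cluster was ligament-like cluster 20 at 1369 CPM, and the next was the same Sfrp2-led cluster of 405 cells at 677 CPM.

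Ligament-like cells were then set against pulp-like cells at P25, 1357 against 632 cells. A member was counted when the log2 ratio of CPM, with a pseudocount of 1 CPM, reached 1 in size and the higher side had at least 20 CPM and 20 UMIs, which 7 of the 10 members had. Fbln5 was 5.29-fold higher in ligament-like cells (95% interval 4.10 to 6.94), at 52.8 CPM in the ligament-like and 9.99 CPM in the pulp-like class. Mfap4 was 2.93-fold higher, at 86.3 CPM in the ligament-like and 29.5 CPM in the pulp-like class. Fbn2 was 15.5-fold lower (95% interval 13.5 to 17.7), at 11.4 CPM in the ligament-like and 177 CPM in the pulp-like class. The other 4 stayed under 2-fold: Fbn1 was 1.96-fold lower, Efemp2 1.55-fold lower, Mfap2 1.15-fold higher and Eln 1.80-fold higher in ligament-like cells.

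So 2 members were at least 2-fold higher and 1 lower in ligament-like cells. Of the 6716 genes that passed the same filter, 9.23% were at least 2-fold higher and 17.4% at least 2-fold lower. The calls on Fbln5 and Mfap4 rest on which clusters count as pulp-like. The Sfrp2-led cluster of 405 cells fell between the pulp-like and other lists and stayed unnamed. Where the best list alone gave the name it joined the pulp-like class, and the log2 ratios became -0.45 for Fbln5 and -2.23 for Mfap4. Without ligament-like cluster 20 the log2 ratio of Mfap4 was -0.07, against 1.52 with it. Eln and Mfap2, which were not counted, also turned by the best list alone, Eln to -0.09 and Mfap2 to -0.55, and Eln stood at -1.79 with no doublets removed. The direction of Fbn2 held under every alternative run, with log2 ratios between -4.25 and -3.03.

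Against osteoblast or cementoblast-like cells, 666 cells, the ligament-like cells of P25 were higher in 5 members and lower in 1, of 7 that passed the filter. Fbln5 was 58.6-fold higher (52.8 CPM in ligament-like and 0.902 CPM in osteoblast or cementoblast-like cells), Mfap4 13.7-fold, Fbn1 9.50-fold, Mfap2 5.38-fold and Eln 2.10-fold higher. Fbn2 was 4.91-fold lower in ligament-like cells, with 56.3 CPM in osteoblast or cementoblast-like cells, and Efemp2 differed by 1.22-fold. Over 5632 genes tested, 13.8% were at least 2-fold higher and 5.22% at least 2-fold lower. The Eln count sat on the threshold and was lost under 11 of the 15 alternatives, down to a log2 ratio of 0.35 without ligament-like cluster 20. Without that cluster the log2 ratio of Mfap4 was 1.99, against 3.58 with it. Fbn2 and Efemp2 were thus the members that the osteoblast or cementoblast-like class held at or above the ligament level. That class left out an unnamed, Eln-rich cluster of 53 cells whose best list was osteoblast or cementoblast, given under Other observations. By the best list alone it joined the class, while the Eln-rich, Ibsp-led cluster of 242 cells joined the ligament-like class. The log2 ratio of Eln was then 0.79. Adding the cluster of 53 cells alone was not run.

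**Figure D2:**
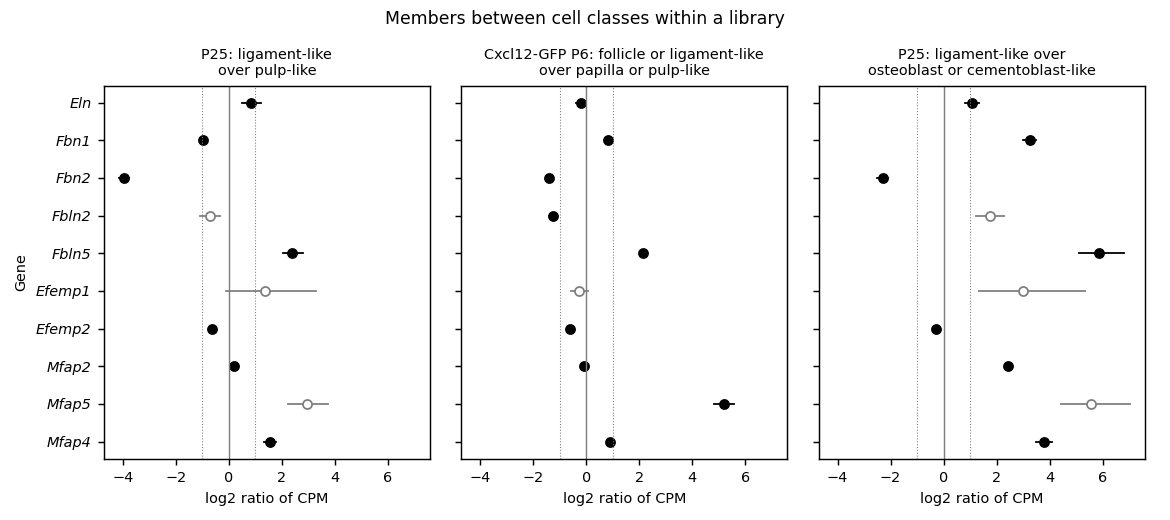
Log2 ratio of CPM (horizontal axis, without a pseudocount) for each member between cell classes within a library; lines are 95% intervals for counting error, filled points passed the filter of 20 CPM and 20 UMIs, open grey points did not, and dotted lines mark 2-fold. Fbln5 lies to the right and Fbn2 to the left of 0 in all 3 panels.

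The ligament-like class of P25 was not uniform. Cluster 20, 80 cells led by Mgp, Gdf10, Mfap4, Mstn and Aspn, held 1369 CPM of Mfap4, against 28.6, 17.0 and 42.1 CPM in clusters 1, 2 and 6. It held 212 CPM of Eln, against 6.76, 24.7 and 20.7 CPM in those 3 clusters, and 282 CPM of Mfap5, against 0.865, 27.9 and 0.493 CPM. Mfap4 was not the product of few cells there, since 76 of the 80 cells had a UMI. Fbln5, Fbn1, Fbn2 and Fbln2 were also highest in cluster 20 of the 4, while Mfap2 ran only between 308 and 440 CPM and Efemp2 between 97.3 and 132 CPM over the 4 clusters. The members were kept out of the genes that made the clusters. In the main setting all 4 clusters were named by the periodontal ligament list, and the levels describe clusters of 1 library. Cluster 20 did not keep that name in every setting. At resolution 0.5 and with no doublets removed, the class drew 20 cells or more from each of clusters 1, 2 and 6 but not from cluster 20. The connective tissue fibroblast-like class then held 200 and 209 cells, against 120 in the main setting. How many of these came from cluster 20 was not counted.

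**Figure D3:**
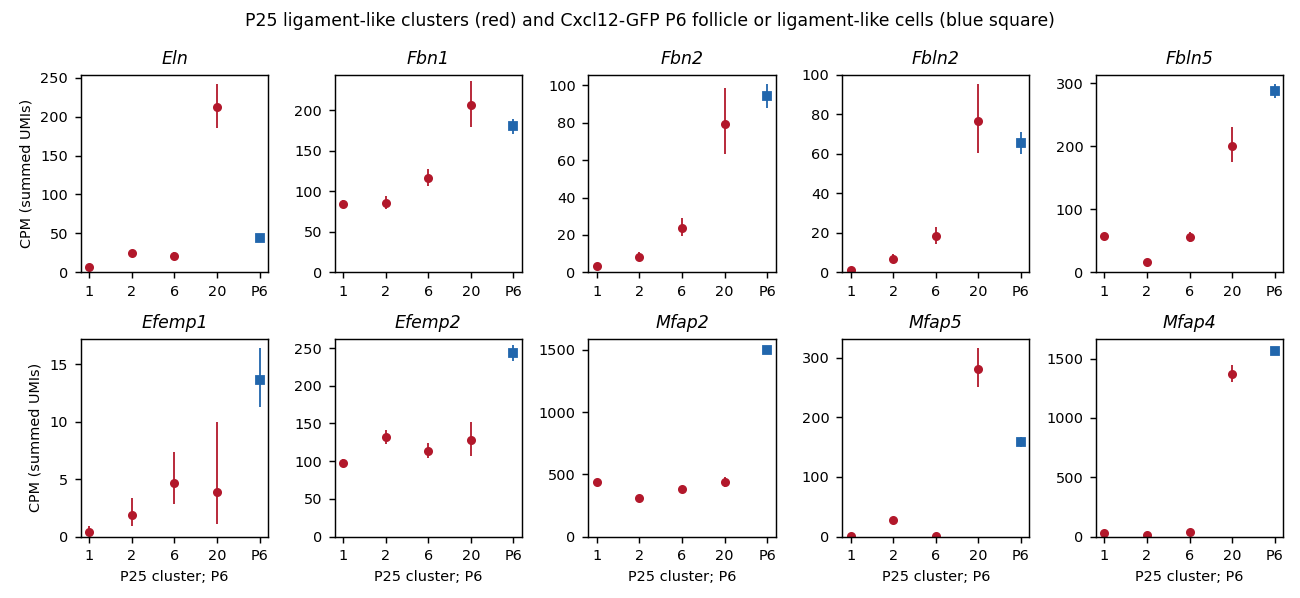
CPM of each member (vertical axis, summed UMI counts with 95% intervals for counting error, own scale per gene) in the 4 ligament-like clusters of P25 (red points) and in the follicle or ligament-like class of Cxcl12-GFP P6 (blue square). Eln, Mfap5 and Mfap4 are far higher in cluster 20 than in clusters 1, 2 and 6, while Mfap2 and Efemp2 are below the P6 value in all 4.

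In Cxcl12-GFP P6, 849 follicle or ligament-like cells were set against 2025 papilla or pulp-like cells, and 9 members passed the filter. Mfap5 was 36.4-fold higher in the follicle or ligament-like class (95% interval 28.4 to 47.4), at 158 CPM in follicle or ligament-like and 4.35 CPM in papilla or pulp-like cells. Fbln5 was 4.44-fold higher, at 287 CPM in follicle or ligament-like and 64.7 CPM in papilla or pulp-like cells. Fbn2 was 2.63-fold lower, at 94.0 CPM in follicle or ligament-like and 248 CPM in papilla or pulp-like cells, and Fbln2 was 2.40-fold lower, at 65.4 CPM in follicle or ligament-like and 157 CPM in papilla or pulp-like cells. Mfap2 differed by 1.05-fold and Eln by 1.15-fold. The 2 higher and 2 lower members stand beside 8.46% of 6762 genes at least 2-fold higher and 8.59% at least 2-fold lower.

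The papilla or pulp-like cells of that library fell into 2 kinds. Cluster 2, 765 cells named by the apical papilla list and led by Tac1 and Smoc2, with the iCreER_trans feature among its 10 leading genes, held 2088 CPM of Mfap4 and 130 CPM of Eln, against 145 and 109 CPM of Mfap4 and 7.74 and 4.15 CPM of Eln in clusters 4 and 5, which were led by Irx5, Stc2 and Cldn10. Fbln2 at 299 CPM, Fbln5 at 128 CPM and Mfap2 at 2602 CPM were also highest in cluster 2 of the 3, and Fbn1 was lowest there at 59.6 CPM. Without cluster 2, 4 members were at least 2-fold higher and 1 lower in follicle or ligament-like cells, and the log2 ratio was 2.68 for Eln, against -0.20 with it, and -0.21 for Fbln2.

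The Cxcl12-GFP P6 and Cxcl12-creER P6 libraries are of the same age and differ in allele and gate. In follicle or ligament-like cells, 849 against 88, Fbn2 was 5.25-fold lower in Cxcl12-GFP P6 (95% interval 4.75 to 5.80), at 94.7 CPM in Cxcl12-GFP P6 and 497 CPM in Cxcl12-creER P6. Neutrophil-like cells of Cxcl12-creER P6 stood at 246 CPM and its dental epithelium-like cells at 2.34 CPM. Mfap5 was 11.6-fold higher in Cxcl12-GFP P6, Mfap4 3.27-fold, Fbln5 3.25-fold and Mfap2 2.34-fold higher, with 4 members higher and 1 lower of 9 that passed. The background was 10.0% of 7250 genes at least 2-fold higher and 18.4% at least 2-fold lower. The Cxcl12-creER P6 class joined 70 cells with a median of 21086 UMIs and 18 cells with a median of 828, and Mfap5 stood at 6.25 CPM in the deep and 754 CPM in the shallow cluster. By the mean of the CPM of single cells the log2 ratio of Mfap5 was -0.10, against 3.45 by summed counts.

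Between P25 and Cxcl12-GFP P6 most members that passed the filter were lower at P25 in each of the 3 classes compared. In follicle or ligament-like cells, 7 of the 9 members that passed were at least 2-fold lower and none higher. Mfap4 was 18.1-fold lower (95% interval 17.3 to 19.0), at 86.3 CPM at P25 and 1562 CPM in Cxcl12-GFP P6. Fbn2 was 8.21-fold lower, at 11.4 CPM at P25 and 94.0 CPM in Cxcl12-GFP P6, Mfap5 8.01-fold, Fbln2 7.44-fold, Fbln5 5.44-fold, Mfap2 3.80-fold and Efemp2 2.21-fold lower. Eln at 1.97-fold lower and Fbn1 at 1.88-fold lower stayed just inside 2-fold, and at resolution 0.5 the log2 ratio of Fbn1 was 0.04. In that setting the P25 class took in the unnamed cluster of 139 cells led by Mgp, Aspn and Col5a3, at 1036 CPM of Fbn1. It also took in 303 cells of an unnamed cluster led by Mmp13 and Ptx3. The part of each in the Fbn1 ratio was not tested. The Mfap4 log2 ratio of -4.16 ran between -5.75, without P25 cluster 20, and -3.35, without cluster 1. Efemp2 was under 2-fold in 3 alternatives, at -0.84 to -0.96. Over 6618 genes, 20.7% were at least 2-fold lower and 10.7% at least 2-fold higher. The median log2 ratio was -2.45 over the 10 members and -0.40 over all genes tested.

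The 2 classes were not alike in marker genes. The summed periodontal ligament list stood at 22969 CPM at P25 and 3524 CPM in Cxcl12-GFP P6, the dental follicle list at 249 CPM at P25 and 2149 CPM in Cxcl12-GFP P6, and the mural list at 292 CPM at P25 and 2078 CPM in Cxcl12-GFP P6. The osteoblast or cementoblast list stood at 6653 CPM at P25 and 321 CPM in Cxcl12-GFP P6. Of these lists all members were detected at P25, and Scx, Mepe and Higd1b were at 0 in Cxcl12-GFP P6. Their part in the result was not tested.

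In papilla or pulp-like cells, 632 at P25 and 2025 in Cxcl12-GFP P6, 6 members were at least 2-fold lower at P25 and none higher, of 8 that passed. Mfap4 was 28.6-fold lower (29.5 CPM at P25, 843 CPM in Cxcl12-GFP P6), Fbln2 10.8-fold, Fbln5 6.48-fold, Mfap2 4.59-fold, Eln 4.07-fold and Efemp2 2.16-fold lower. Fbn1 went the other way at 1.84-fold higher (187 CPM at P25 and 101 CPM in Cxcl12-GFP P6), and Fbn2 was 1.40-fold lower. The background was 10.3% of 7002 genes lower and 11.6% higher. The apical cluster 2 of Cxcl12-GFP P6 decided the direction of Eln, whose log2 ratio was 0.93 without it and -1.94 with it, and it carried much of the Mfap4 ratio, which was -2.08 without it and -4.79 with it. Where the best list alone gave the name, the Sfrp2-led P25 cluster joined the class, 3 members were lower, the log2 ratio of Fbln5 was 0.00 and that of Mfap4 -1.41.

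In endothelial-like cells, 85 at P25 and 77 in Cxcl12-GFP P6, 7 members were at least 2-fold lower at P25 and none higher, of 8 that passed. Eln was 4.83-fold lower (95% interval 4.02 to 5.83), at 136 CPM at P25 and 655 CPM in Cxcl12-GFP P6. Fbln5 was 5.42-fold lower, at 103 CPM at P25 and 555 CPM in Cxcl12-GFP P6, and Fbln2 3.58-fold lower, at 225 CPM at P25 and 806 CPM in Cxcl12-GFP P6. The other 4 cannot be told from free RNA in Cxcl12-GFP P6, since their endothelial-like levels lay within the intervals of the 10 epithelium-like cells: Mfap2 at 351 against 280 CPM, Mfap4 at 118 against 67.9 CPM, Efemp2 at 72.7 against 76.4 CPM and Fbn2 at 43.4 against 59.4 CPM. The background was 10.0% of 6724 genes lower and 17.2% higher. Per UMI, the endothelial-like cells thus held less Eln, Fbln2 and Fbln5 at P25, and mural-like cells were not compared. The 2 endothelial-like clusters were not alike in leading genes. That of P25 was led by Plvap, Fabp4 and Emcn, and that of Cxcl12-GFP P6 by Cldn5, Gja4 and Cd34. Plvap, Cdh5, Pecam1 and Ly6c1 were among the 10 leading genes of both. The part of this difference in the ratios was not tested.

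**Figure D4:**
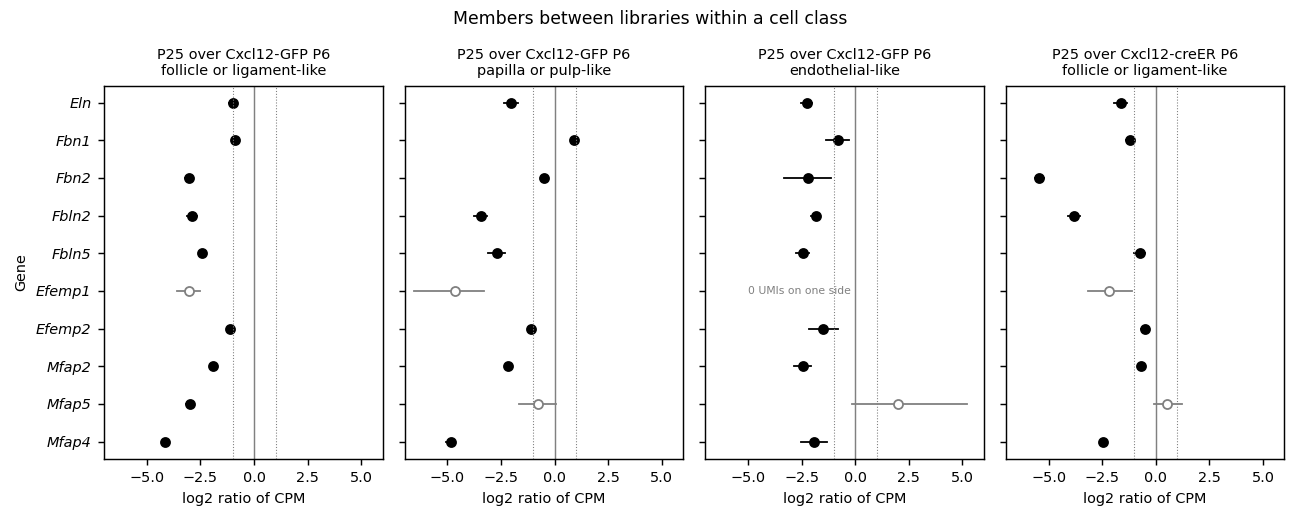
Log2 ratio of CPM (horizontal axis, without a pseudocount) for each member between libraries within a cell class; lines are 95% intervals for counting error, filled points passed the filter of 20 CPM and 20 UMIs, open grey points did not, and dotted lines mark 2-fold. Mfap4 and Fbln2 lie left of -1 in all 4 panels, and Fbn1 lies right of 0 in papilla or pulp-like cells and left of 0 in the other 3 panels.

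Against the other P6 library, 5 members were at least 2-fold lower at P25 in follicle or ligament-like cells and none higher, of 8 that passed. Fbn2 was 43.3-fold lower (95% interval 37.6 to 49.8), at 11.5 CPM at P25 and 497 CPM in Cxcl12-creER P6. Neutrophil-like cells of Cxcl12-creER P6 held 246 CPM (95% interval 174 to 338) and its dental epithelium-like cells 2.34 CPM. Which of them gives the level of free RNA was not tested. Fbln2 was 14.2-fold, Mfap4 5.54-fold, Eln 3.11-fold and Fbn1 2.31-fold lower. Fbln5 at 1.68-fold, Mfap2 at 1.63-fold and Efemp2 at 1.41-fold lower stayed under 2-fold. Fbn1 was under 2-fold at resolution 0.5 (-0.32) and after division by the median ratio (-0.97), and Eln by the best list alone (-0.49) and without P25 cluster 1 (-0.77). The background was 20.5% of 6948 genes lower and 7.47% higher. Mfap4, Fbln2 and Fbn2 were therefore at least 2-fold lower at P25 against each P6 library, and both comparisons share the P25 cells.

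In osteoblast or cementoblast-like cells, 666 at P25 and 105 in Cxcl12-creER P6, Fbn1 was 10.8-fold, Mfap2 4.03-fold and Fbn2 2.37-fold lower at P25, 3 members lower and none higher of 4 that passed. There, 10.4% of 3023 genes were lower and 13.6% higher. The Cxcl12-creER P6 class held 26 Fbn1, 71 Mfap2 and 32 Fbn2 UMIs in all, and without its cluster 9 only 1 member was lower. Its 134 CPM of Fbn2 lay below the 246 CPM of neutrophil-like cells in that library and above the 2.34 CPM of its dental epithelium-like cells. Taken against the neutrophil-like value, the Fbn2 difference cannot be told from free RNA. The 298 CPM of Mfap2 stood beside 123 CPM in neutrophil-like and 17.9 CPM in dental epithelium-like cells. In dental epithelium-like cells, 106 at P25 and 130 in Cxcl12-creER P6, 1 member passed, Fbln2 at 3.14-fold higher, 1 higher and none lower. In that comparison 54.9% of 6110 genes were higher and 7.82% lower, so the ratio lies within a shift of all genes, whose median log2 ratio was 1.13. The epithelia were not alike: the P25 cells were led by Krt14, Krt5, Krt17 and Krt6a with 3165 CPM of the summed keratinocyte list, while most Cxcl12-creER P6 cells were led by the enamel genes Enam, Ambn and Amelx, and the class held 32.7 CPM of that list, with Krt1, Krt13 and Krt4 at 0. Without the ameloblast-marked cluster 2 of Cxcl12-creER P6 the log2 ratio of Fbln2 was -1.57.

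Ratios between members within the same cells do not depend on the total UMI count. Fbn2 was set against Fbn1 as UMIs per 100 Fbn1 UMIs, and the value is read only between classes. In follicle or ligament-like cells there were 12.0 Fbn2 UMIs per 100 Fbn1 UMIs at P25 (95% interval 10.5 to 13.6), against 52.3 in Cxcl12-GFP P6 (47.9 to 57.0) and 224 in Cxcl12-creER P6 (198 to 255). In papilla or pulp-like cells there were 94.7 at P25 and 244 in Cxcl12-GFP P6. Endothelial-like cells had 19.0 at P25 and 49.2 in Cxcl12-GFP P6, and mural-like cells 7.30 at P25 and 38.0 in Cxcl12-GFP P6. The intervals of P25 and P6 did not overlap in the follicle or ligament-like, papilla or pulp-like and mural-like classes, and overlapped in endothelial-like cells. The Fbn2 level of the endothelial-like cells of Cxcl12-GFP P6 also cannot be told from free RNA, as given above. The osteoblast or cementoblast-like class gives no such comparison: it had 559 at P25, with 149 to 2120 over its clusters, and 123 in Cxcl12-creER P6 from 32 Fbn2 and 26 Fbn1 UMIs, at a Fbn2 level below that of neutrophil-like cells.

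Within P25 this ratio ran over 2 orders of size, with 2.72 Fbn2 UMIs per 100 Fbn1 UMIs in connective tissue fibroblast-like cells, 7.21 in marrow stromal-like cells, 190 in odontoblast-like cells and 559 in osteoblast or cementoblast-like cells. Fibroblast, marrow and vascular-wall classes were thus weighted to Fbn1, and the mineralising classes to Fbn2. Eln per 100 Fbn1 UMIs in follicle or ligament-like cells was 23.6 at P25 (21.4 to 25.9), 24.8 in Cxcl12-GFP P6 (22.0 to 27.7) and 31.7 in Cxcl12-creER P6 (25.5 to 39.3). The P25 value depended on its clusters, at 15.4 without cluster 20 (13.6 to 17.3) and 37.6 without cluster 1 (33.7 to 41.9). In papilla or pulp-like cells it was 6.72 at P25 (5.28 to 8.46) and 50.5 in Cxcl12-GFP P6, where it was 217 in the apical cluster 2 and 4.88 (3.70 to 6.34) without it. Endothelial-like cells had the most Eln for their Fbn1 among the named classes of both libraries, with 269 at P25 and 743 in Cxcl12-GFP P6.

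**Figure D5:**
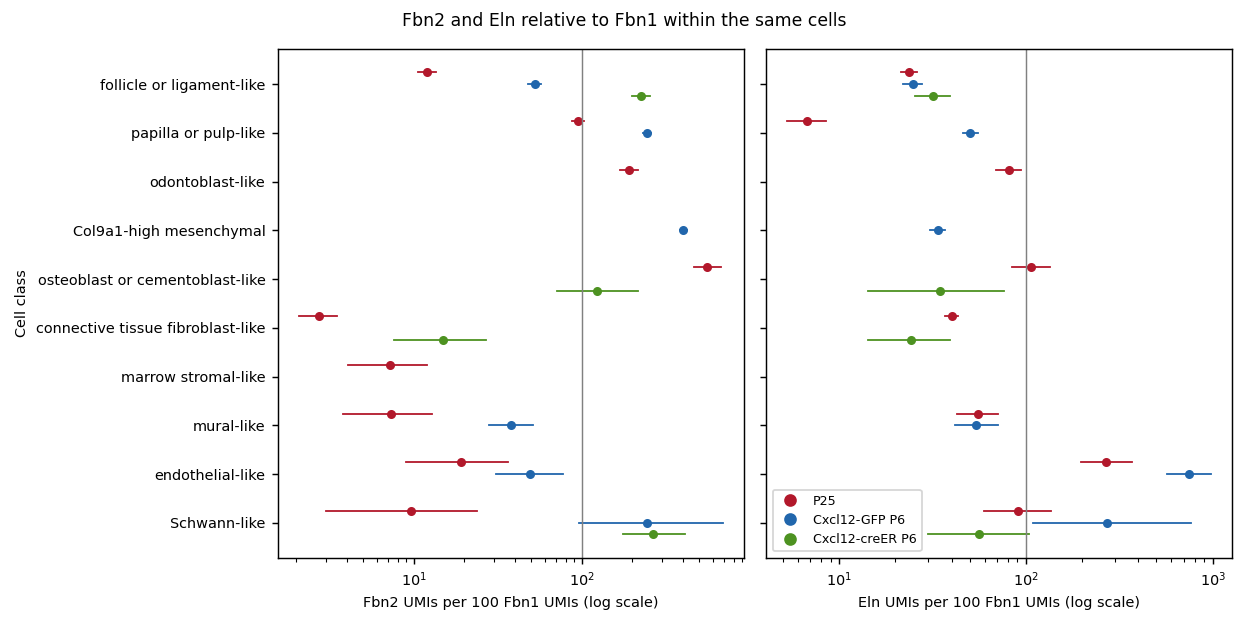
Fbn2 UMIs (left) and Eln UMIs (right) per 100 Fbn1 UMIs of the same cells, on log axes, by cell class (rows) for P25 (red), Cxcl12-GFP P6 (blue) and Cxcl12-creER P6 (green); lines are 95% intervals for counting error and the grey line marks equal UMIs. In follicle or ligament-like cells the Fbn2 points of the 3 libraries are apart while their Eln points, which move with the clusters joined at P25, lie between 23.6 and 31.7; marrow stromal-like cells have no Eln point because no Eln UMI was found.

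The partner genes of the fibre pathway were 40 in 7 groups, and those named are the ones with the largest ratios. In follicle or ligament-like cells, P25 over Cxcl12-GFP P6, 8 partners were at least 2-fold higher and 6 lower of 24 that passed, beside 10.7% of all genes higher and 20.7% lower. The median log2 ratio was -0.10 over the 40 partners, against -2.45 over the members, and the difference between the lists was not tested. The microfibril-binding matrix proteins had 4 higher and none lower of 5 that passed, with Fn1, the fibronectin gene, 4.04-fold higher at 424 CPM at P25 and 105 CPM in Cxcl12-GFP P6. Mmp2, which encodes a gelatinase that can cut elastin, was 5.39-fold higher at 1561 CPM at P25 and 290 CPM in Cxcl12-GFP P6. The other fibulins and EMILINs had none higher and 3 lower of 5, with Emilin2 11.3-fold and Fbln7 10.3-fold lower. In papilla or pulp-like cells 5 partners were higher and 4 lower of 24 (11.6% and 10.3% of all genes), and in endothelial-like cells 5 higher and 2 lower of 18 (17.2% and 10.0%). Against Cxcl12-creER P6, 8 partners were higher and 4 lower of 23 at P25 in follicle or ligament-like cells (7.47% and 20.5% of all genes). There Vcan was 14.8-fold and Emilin2 8.26-fold lower at P25, and Dcn was 6.49-fold higher. The lysyl oxidase gene Lox was 7.36-fold higher, at 495 CPM at P25 and 67.3 CPM in Cxcl12-creER P6.

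Between classes, the partners with the largest ratios were these, and no partner ratio was recomputed under an alternative setting. The pulp-like class of P25 here left out the Sfrp2-led cluster, and the papilla or pulp-like class of Cxcl12-GFP P6 included its cluster 2. At P25, ligament-like cells held 32.2-fold more Thsd4, which encodes the microfibril-promoting ADAMTSL6, at 57.1 CPM in the ligament-like and 1.77 CPM in the pulp-like class. The pulp-like value rests on 11 UMIs. Loxl2, a lysyl oxidase gene, was 24.5-fold higher at 339 CPM in the ligament-like and 13.9 CPM in the pulp-like class, and Ltbp4, a latent TGF-beta binding protein gene tied to elastic fibre assembly, was 17.9-fold higher. Fbln7 was 44.4-fold lower, at 3.03 CPM in the ligament-like and 135 CPM in the pulp-like class. In all, 8 partners were higher and 8 lower of 25 that passed, beside 9.23% of all genes higher and 17.4% lower, and the median log2 ratio was 0.14 over the 40 partners and 0.44 over the members. In Cxcl12-GFP P6, Thsd4 was 21.4-fold, Adamtsl5 25.3-fold and Ltbp4 7.88-fold higher in the follicle or ligament-like class, and Vcan 5.82-fold lower, with 7 partners higher and 3 lower of 25, beside 8.46% and 8.59% of all genes.

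Over the 27 P25 clusters, the genes whose log2(CPM + 1) followed each member most closely were sought among 7007 genes, and these correlations are descriptions over clusters of 1 library that share depth. Fbn1 followed Acadsb (r = 0.94), Rarres2 and Il1r1. Mfap2 followed Sspn (r = 0.96), Numbl and P3h3, and Efemp2 followed Podxl2 (r = 0.95), Maged1 and Crtap. Fbln5 followed the basement membrane genes Nid1 (r = 0.89) and Lamb1, followed by Rev3l. Mfap4 followed Spock2 (r = 0.84), Capn6 and Gpc3, and Mfap5 followed Entpd2 (r = 0.86), Has2 and Lgi4. Fbn2 followed Pcsk5 (r = 0.83), Bambi and Msi1, and Fbln2 followed Prrg3 (r = 0.81), Hmcn1 and Sptan1. Eln and Efemp1 had no close neighbour by comparison, with Spop (r = 0.79), Pja2 and Egln1 for Eln and Slc2a1 (r = 0.74), Tmeff2 and Entpd2 for Efemp1. Between members, Mfap2 and Mfap4 had r = 0.72 at P25, 0.79 over the Cxcl12-GFP P6 clusters and 0.91 over those of Cxcl12-creER P6.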

How the data were processed

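For each of the 3 libraries the authors deposited 1 matrix of UMI counts, not normalized. The submitters' processing notes name mm10, Cell Ranger and Seurat, and per the file headers the Cell Ranger version was 3.1.0 at P25 and 6.0.0 in Cxcl12-creER P6; how barcodes were filtered and reads counted is not stated. Depth was 99277096 UMIs at P25, 68891094 for Cxcl12-GFP P6 and 6596256 for Cxcl12-creER P6 before filtering. An intronic or multi-mapped read cannot be told from the counts.

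Kept barcodes had 500 genes or more and no more than 15% of UMIs from mitochondrial genes. Doublets were scored against 2 simulated doublets per cell and removed from the top score down at 0.8% per 1000 cells, so the number removed (256, 452 and 10, in the order of the totals above) follows from that rate. Each library was clustered alone (2000 variable genes in 20 bins without members, partner genes, Cxcl12, reporters, mitochondrial or ribosomal genes; 30 components; 15 neighbours; Leiden resolution 1.0; Python 3.11.15, numpy 2.4.6, scipy 1.17.1, leidenalg 0.10.2 with igraph 0.11.9, scikit-learn 1.9.0). Clusters were named from 22 marker lists, by at least 3 markers that were detected in 10% of cells at 1.5-fold over the other clusters' median, a mean log2 score of 0.9 and a lead of 0.3 over any other list with 3 such markers; a list with fewer did not compete, so 17 cells of Cxcl12-creER P6 are osteoblast or cementoblast-like although the osteoclast list scored higher. This rule was set and adjusted after the clusters were seen. The members and lists were chosen with earlier results of these data known.

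UMI counts were summed per class and scaled to CPM, with exact Poisson intervals for levels, exact conditional binomial intervals for ratios and Clopper-Pearson intervals for shares. With 1 library per group nothing was tested across samples. The ratio step was tested on simulated counts. Comparisons with Cxcl12-creER P6 used the 27040 gene identifiers shared with it. All 10 members are named; of the partners, up to 4 with the largest ratio past 2-fold in a comparison; and for each member the 3 genes with the highest correlation over P25 clusters, among genes reaching 50 CPM in any cluster. Alternatives covered doublet removal, a mitochondrial limit of 10%, resolution 0.5, naming by the best list, the mean of CPM per cell, division by the median ratio, a pseudocount of 5 CPM, no minimum level, thinning to 2000 UMIs and, chosen after seeing the data, leaving out each cluster of a joined class, also for UMIs per 100 Fbn1 UMIs.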

Additional observations from a re-analysis of the deposited data

Results flagged for a closer look

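The same contrast of libraries went in opposite directions in different classes for 2 members, and none of these differences was tested, since each group is 1 library. For P25 over Cxcl12-GFP P6, Fbn1 was 1.84-fold higher in papilla or pulp-like cells and 1.88-fold lower in follicle or ligament-like cells, a difference of 1.78 between the log2 ratios. At resolution 0.5 the follicle or ligament-like log2 ratio was 0.0395, so the opposite directions were lost there. It was also 1.75-fold lower in endothelial-like cells, a difference of 1.67 from the papilla or pulp-like cells. For P25 over Cxcl12-creER P6, Fbln2 was 3.14-fold higher in dental epithelium-like cells and 14.2-fold lower in follicle or ligament-like cells, a difference of 5.22 in log2 ratio; the epithelial side rests on 72 UMIs at P25 and 11 in Cxcl12-creER P6, and its direction turned with 2 of the alternatives given in the next section.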

How the results depend on the processing

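Of 230 recomputed counts of members, 198 stayed within 1.5 times the count given and 32 did not; the count of 7 lower members at P25 in follicle or ligament-like cells against Cxcl12-GFP P6 stayed within it under every alternative run. The causes of the changes below were not tested, apart from the clusters named. For P25 ligament-like over pulp-like cells, 0 members were higher and 3 lower with no doublets removed, 0 and 2 by the best list alone, 1 higher at resolution 0.5, 4 higher by the mean of CPM per cell, 4 higher without cluster 1, 2 lower without cluster 6, and 1 higher and 2 lower without cluster 20. The log2 ratio of Fbln5 there turned to -0.52 and that of Mfap4 to -3.62 with no doublets removed, to -0.45 and -2.23 by the best list alone, and Mfap4 to -0.0727 without cluster 20; 400 and 405 cells of the Sfrp2-led cluster joined the pulp-like class in the first 2 settings. Without a minimum level, 8 members were higher in ligament-like than in osteoblast or cementoblast-like cells, 2 higher at P25 in endothelial-like cells, 5 higher in epithelium-like cells and 8 lower in osteoblast or cementoblast-like cells against Cxcl12-creER P6. For Cxcl12-GFP P6 follicle or ligament-like over papilla or pulp-like cells, 0 were lower with no doublets removed, and 4 higher and 1 lower without cluster 2. For Cxcl12-GFP P6 over Cxcl12-creER P6, 2 were lower by the mean of CPM per cell, where the log2 ratio of Mfap5 was -0.10, and 2 lower after division by the median ratio. For P25 over Cxcl12-GFP P6 in papilla or pulp-like cells, 3 were lower with no doublets removed and 3 by the best list alone, where Fbln5 was at 0.0034; 1 was higher after division by the median ratio, without cluster 4 and without cluster 5 of Cxcl12-GFP P6, and Eln was at 0.93 without its cluster 2. For epithelium-like cells, 2 were higher with no doublets removed, 0 after division by the median ratio, 0 higher and 1 lower by the mean of CPM per cell, where Fbln2 was at -0.79, and 0 higher and 1 lower without cluster 2 of Cxcl12-creER P6, where Fbln2 was at -1.57. In osteoblast or cementoblast-like cells 1 was lower without cluster 9 of Cxcl12-creER P6, and in follicle or ligament-like cells 1 was higher than in Cxcl12-creER P6 without P25 cluster 1. The Eln count in ligament-like over osteoblast or cementoblast-like cells was lost under 11 of 15 alternatives. Leaving out the 70-cell cluster 6 of Cxcl12-creER P6 was not run, since 18 cells remain.

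No paired analysis was possible because each group has 1 library. Depth limits the Cxcl12-creER P6 library most, and there a member at 1 or 2 UMIs in a class gives no level.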

Other observations

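The most Eln-rich cells of the Cxcl12-creER P6 library were in a cluster that took no class name, 79 cells led by Mfap5, Clec3b, Col14a1, Kera and Tnmd, where fibroblast and tendon or ligament genes stood together. They held 1988 CPM of Eln (95% interval 1849 to 2134) and 1758 CPM of Mfap5. Of the UMIs in the 18 clusters of at least 20 cells, they held 76.7% for Eln and 91.5% for Mfap5. Eln was found in 62 of the 79 cells, although 10 cells held 49.9% of its UMIs. Fbn1 stood at 1140 CPM and Fbln5 at 404 CPM in the same cells.

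At P25, Eln was also found without much fibrillin-1. An unnamed cluster of 242 cells led by Ibsp, Bmp3, Dmp1 and Pthlh held 289 CPM of Eln, found in 166 of its cells, and 53.6 CPM of Fbn1, which is 540 Eln UMIs per 100 Fbn1 UMIs (95% interval 452 to 649). An unnamed cluster of 53 cells led by Dmp1, Phex, Dkk1 and Mepe, genes known from osteocytes, held 246 CPM of Eln and 2.55 CPM of Fbn1, from 289 and 3 UMIs. Its Eln was found in 24 of the 53 cells, and 10 cells held 72.7% of the UMIs. The osteoblast or cementoblast-like class stood at 10.8 CPM of Eln beside them.

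Mfap5 in Schwann-like cells of P25, at 292 CPM, came from 10 of 55 cells, and Mfap5 in the mural-like cells of Cxcl12-GFP P6, at 129 CPM, came from 12 of 63 cells with 53.5% of the UMIs in the highest cell. Neither level describes the class as a whole.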
